A study of Homo sapiens with 6 samples.

Results

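In the human clear cell sarcoma line SU-CCS-1, of genotype EWSR1::ATF1, 646 of 30784 H3K27ac peaks were wider than 5 kb. They were selected on the deposited width alone, that is, end minus start above 5000 bases, and made up 2.10% of peaks and 11.2% of all bases under peaks. The narrower peaks numbered 30138. The series holds 3 chromatin immunoprecipitation (ChIP-seq) samples made with an anti-H3K27ac antibody and 3 input samples, which are chromatin sequenced without the antibody. All 6 came from the same line with no treatment named. The authors deposited 1 merged list with 4 columns and no value per sample, so there are no replicate errors, and the list gives no read count behind a peak. Intervals are 95% Wilson intervals for shares, 95% Newcombe intervals for differences between shares and exact Poisson intervals for rates per Mb, and they cover counting error only. The model is 1 line, and its copy number at these loci was not analysed here.

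H3K27ac, acetylation of lysine 27 on histone H3, is laid down by the acetyltransferases p300 and CBP and marks active promoters and enhancers. Most marked sites are short, and broad stretches are known to occur at highly transcribed genes and at genes that define a cell's identity. Clear cell sarcoma carries a fusion of EWSR1 with ATF1, a bZIP factor that binds cAMP response elements, and the tumour expresses genes of the melanocyte lineage.

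The widest peak lay over SLC7A5, which encodes the light chain of the LAT1 amino acid transporter. It spanned 35.69 kb (hg38 chr16:87834421-87870110, minus strand of the gene), beginning 0.603 kb before the canonical start and running 35.1 kb into the gene, so that it covered 88.9% of the gene. A stretch of 250 bases just before the start is shown beside 250 bases at the midpoint of the peak, 17.2 kb into the gene, to show the base composition of the widest peak near the start and at its midpoint. Both are hg38 sequence on the gene's strand, 5′ to 3′, with each CpG in capitals.
SLC7A5 before the start, chr16:87869508-87869757: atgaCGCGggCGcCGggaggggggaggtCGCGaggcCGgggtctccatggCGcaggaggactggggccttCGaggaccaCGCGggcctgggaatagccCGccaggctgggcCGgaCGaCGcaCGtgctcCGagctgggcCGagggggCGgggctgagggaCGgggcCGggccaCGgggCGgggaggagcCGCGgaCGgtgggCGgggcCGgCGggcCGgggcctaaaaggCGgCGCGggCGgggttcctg
SLC7A5 peak midpoint, chr16:87852141-87852390: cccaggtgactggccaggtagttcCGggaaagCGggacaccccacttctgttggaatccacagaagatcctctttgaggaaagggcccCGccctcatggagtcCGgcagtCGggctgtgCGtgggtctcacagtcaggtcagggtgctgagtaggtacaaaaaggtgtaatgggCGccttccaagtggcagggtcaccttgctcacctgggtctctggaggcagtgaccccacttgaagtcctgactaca
The stretch before the start held 34 CpGs at 79.6% GC and the stretch at the midpoint held 7 at 58.8% GC.

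The palindrome TGACGTCA, the full cAMP response element, was found in 64 of the 646 wide peaks (9.91%, 7.83 to 12.45%), 70 times in all. A wider peak can hold more copies for its width alone. Among peaks with a coding start inside, the palindrome lay in 12.2% of wide peaks and in 7.06% of peaks of 2 to 5 kb. Per Mb it was less frequent in the wide peaks, 17.6 against 26.8. Among wide peaks over a start of a gene in the transcription factor, melanocyte lineage or cAMP-responsive lists, it occurred 9 times at 8 genes. These 9 are shown because they give the fusion's known target letters at the genes described below. Each is 28 bases of hg38 on the strand of the gene with the element in capitals, and the set was chosen after the values were seen. A match of letters is not a measured binding site.
SOX10, 7376 bases upstream of the start, chr22:37991918-37991945: cttcatctgcTGACGTCActcctatgta
PMEL, 2314 bases downstream, chr12:55970989-55971016: agacccacgtTGACGTCAgtcaaaactc
PPARGC1A, 128 bases upstream, chr4:23890162-23890189: tgcctttgagTGACGTCAcgagttagag
ID1, 922 bases upstream, chr20:31604353-31604380: tatgaatgggTGACGTCAcaggcctggc
DBP, 1730 bases upstream, chr19:48639095-48639122: gtttcctgcgTGACGTCAccaagaccat
MNT, 7172 bases downstream, chr17:2393875-2393902: atggcccggcTGACGTCAgcggggctcc
ERF, 2372 bases downstream, chr19:42252742-42252769: tgagacacccTGACGTCAccccctcttc
DEAF1, 50 bases upstream, chr11:693064-693091: tacgaacagcTGACGTCAagtggtttcc
DEAF1, 3160 bases downstream, chr11:689854-689881: tggaacgtgcTGACGTCAtggagcgggg
Only PPARGC1A and 1 of the DEAF1 elements lay within 250 bases upstream of the start used. Distances were measured from the canonical start, or from the outermost start inside the peak for PMEL and DEAF1, whose canonical starts lay outside it.

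The median width of the wide peaks was 6635 bases, with quartiles of 5632.5 and 8405 bases. There were 548 between 5 and 10 kb and 98 above 10 kb. Next to the limit, the narrowest members were peaks of 5010 bases over a start of MYO18A, of 5010 bases near RIPK4 and of 5020 bases over a start of ROPN1B. The widest peaks left out measured 5000 bases over GATA3, which encodes a zinc finger factor, 4990 bases inside GNG7 and 4980 bases over FNDC10.

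**Figure D1:**
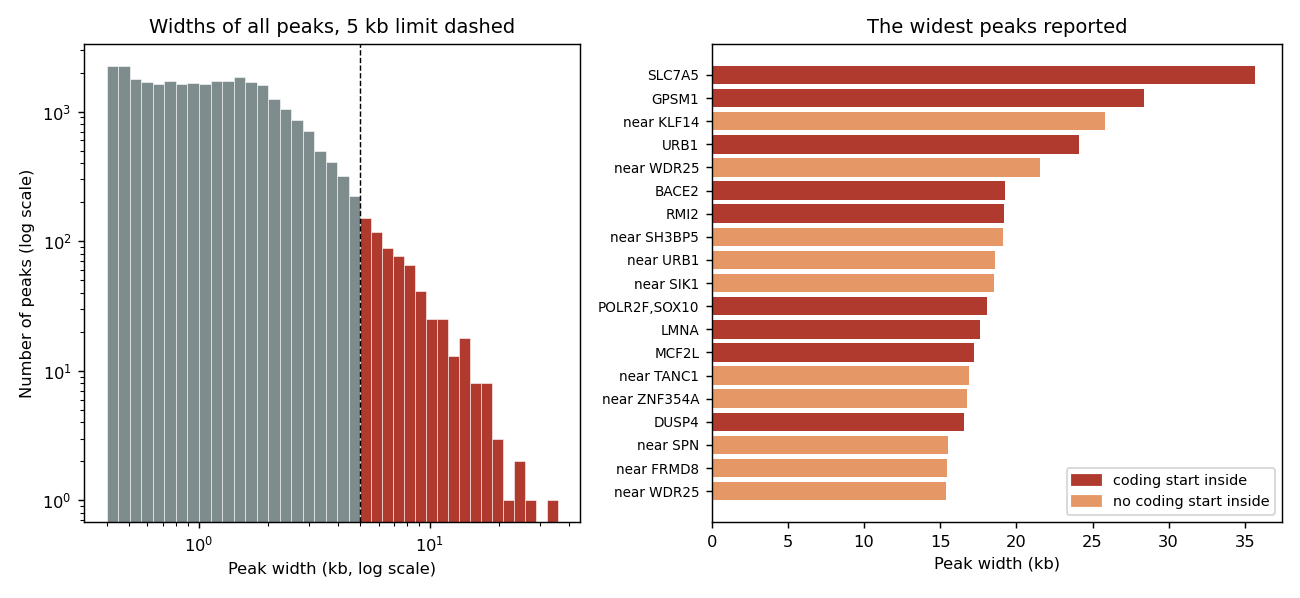
Left, number of peaks by width in kb, both axes on a log scale, with peaks above the dashed 5 kb limit in red. Right, width in kb of the widest peaks reported, from 35.69 kb over SLC7A5 to 15.41 kb near WDR25, labelled with the coding genes that start inside (red) or the nearest coding start (orange).

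Among the 20 widest peaks, those over coding starts included SLC7A5, GPSM1, URB1, BACE2, RMI2, SOX10 with POLR2F, LMNA, MCF2L and DUSP4. GPSM1, a modulator of G protein signalling, had a peak of 28.35 kb. BACE2, which encodes a protease that processes PMEL in pigment cells, had 19.25 kb. LMNA, the gene of the nuclear lamins A and C, had 17.63 kb. Other peaks among the 20 held no coding start. A peak of 25.79 kb on chromosome 7 held starts of the long noncoding RNAs (lncRNAs) LINC-PINT and LINC00513, and one of 15.43 kb on chromosome 11 held the start of NEAT1, the RNA scaffold of paraspeckles. A peak of 15.50 kb on chromosome 16 lay over SLC7A5P1, a pseudogene copy of SLC7A5. Reads from the copy and the gene can be hard to tell apart, and how they were divided was not tested.

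A protein-coding start site, counting every transcript of each coding gene in GENCODE version 44, lay inside 368 wide peaks (57.0%, 53.1 to 60.7%). The share was 37.1% in all narrower peaks and 57.4% in peaks of 2 to 5 kb. The wide peaks were thus higher than the narrower ones by 19.8 percentage points (15.9 to 23.6), but differed from the 2 to 5 kb band by -0.43 points (-4.50 to 3.57), an interval that includes 0. A wider interval holds more annotated starts for its width alone. When starts were limited to the Ensembl canonical transcript of each gene, the share fell to 39.2% (35.5 to 43.0%) in wide peaks against 48.2% at 2 to 5 kb, a difference of -9.07 points (-13.0 to -5.02). Against all narrower peaks it remained 8.36 points higher (4.63 to 12.2). Per Mb of peak, the wide peaks held 448 distinct coding start positions (429 to 467), against 1179 at 2 to 5 kb and 1481 over all narrower peaks.

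Within the study's promoter window of 3 kb around any annotated start lay 499 wide peaks (77.2%, 73.9 to 80.3%), against 60.9% of narrower peaks and 73.8% of those of 2 to 5 kb. The difference from the 2 to 5 kb band was 3.44 points, with an interval of -0.14 to 6.74. Starts of more than 1 coding gene were held by 59 wide peaks (9.13%), 48 with 2 genes and 11 with 3. The corresponding share at 2 to 5 kb was 10.6%, and the difference of -1.44 points was not beyond counting error (-3.60 to 1.16). Examples with 3 genes were peaks over the histone genes H2AC17, H2BC17 and H3C12 (7.29 kb) and one of 6.08 kb over CDK5, SLC4A2 and a gene model without a symbol. A peak of 6.16 kb held starts of CRYAB and HSPB2, which encode small heat shock proteins, and of 1 readthrough model.

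The share of peaks with a lncRNA start inside was higher in wide peaks. A lncRNA start lay inside 174 of them (26.9%, 23.7 to 30.5%), 5.93 points more than at 2 to 5 kb (2.46 to 9.64). In 59 wide peaks (9.13%) a lncRNA start was present without a coding one, 3.85 points more than at 2 to 5 kb (1.76 to 6.38). A wider interval holds more lncRNA starts for its width alone, and the share rose from 4.13% of peaks up to 1 kb to 28.6% above 10 kb. Peaks with a lncRNA start numbered 174 in 4.95 Mb of wide peaks and 1105 in 14.97 Mb at 2 to 5 kb. The lncRNA starts per Mb were not counted, so an excess beyond width is not shown. The midpoint lay outside every annotated gene in 13.3% of wide peaks (10.9 to 16.2%) against 17.7% at 2 to 5 kb, a difference of -4.35 points (-6.97 to -1.34). Above 10 kb only 4 of 98 midpoints (4.08%, 1.60 to 10.03%) lay outside genes.

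**Figure D2:**
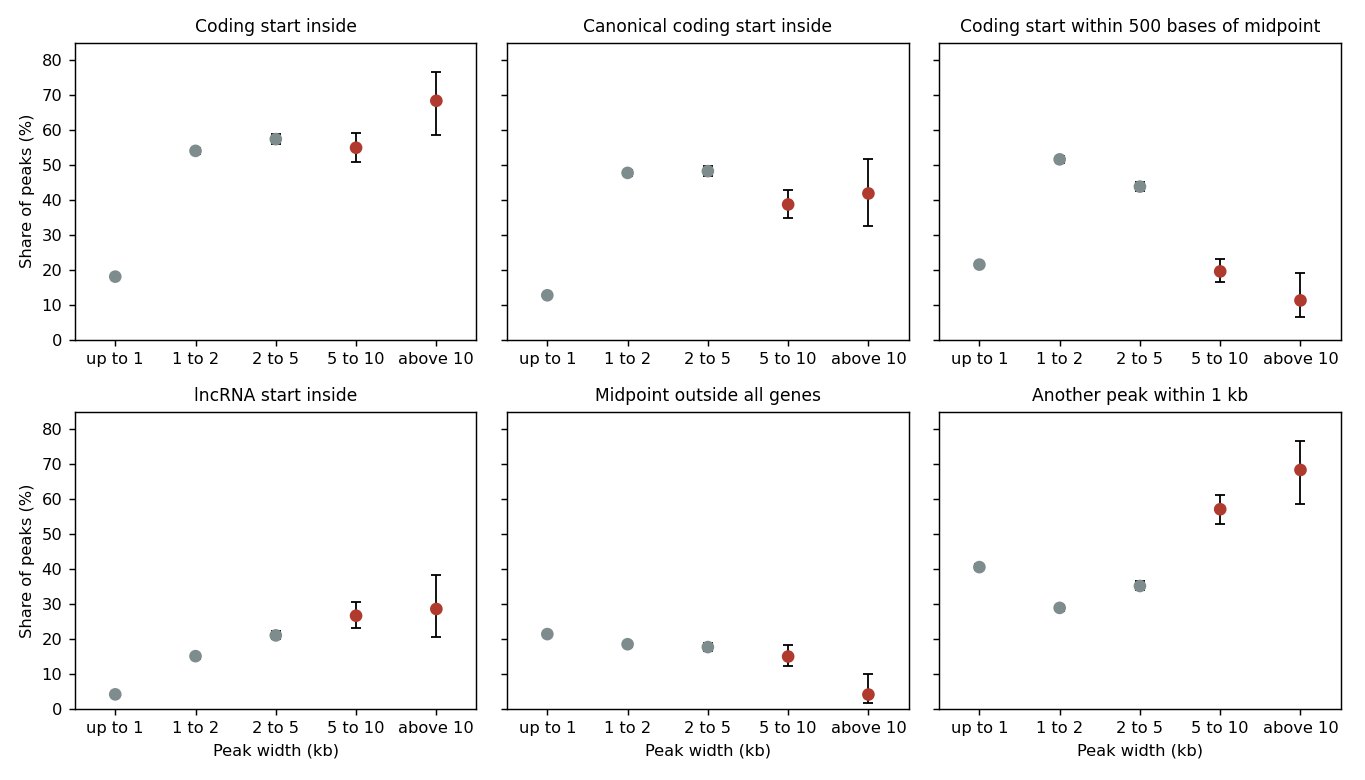
Share of peaks in percent, with 95% Wilson intervals, in 5 width bands in kb for 6 measures, with the wide bands in red. The share with a coding start inside lies between 54.0% and 57.4% from 1 to 10 kb and at 68.4% (58.6 to 76.7%) above 10 kb, canonical starts fall from 48.2% at 2 to 5 kb to 38.7% at 5 to 10 kb, and close neighbours are most frequent above 10 kb.

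Of the 1562 microRNA hairpins in the RefSeq table (GRCh38.p14), 22 lay in wide peaks and 133 in narrower ones. Wide peaks held 11.2% of all bases under peaks, and an excess of hairpins over this coverage was not tested. The cluster of MIR23A, MIR27A and MIR24-2 lay together in a peak of 11.92 kb (chr19:13833721-13845640) that held no coding start. The 3p mature sequences are printed because this was the sole wide peak with several hairpins; this set was also chosen after the values were seen. The seed, bases 2 to 8, is in capitals, and the 3 seeds differ.
hsa-miR-23a-3p, chr19:13836595-13836615: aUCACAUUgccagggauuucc
hsa-miR-27a-3p, chr19:13836447-13836467: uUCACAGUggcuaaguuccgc
hsa-miR-24-3p, chr19:13836289-13836310: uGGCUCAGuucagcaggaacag
MIR6775 lay in the SLC7A5 peak, MIR4534 in the SOX10 peak and MIR3193 in the ID1 peak. H3K27ac over a hairpin gives no level of the microRNA.

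The position of the start inside the peak was taken from the 309 wide peaks that held starts of exactly 1 coding gene. They extended further downstream than upstream of the start in 240 cases (77.7%, 72.7 to 82.0%). The median reach was 4877 bases downstream (quartiles 3448 and 6473) and 1703 bases upstream (956 and 3185). At 2 to 5 kb the share was 67.8% and the medians were 1534 and 1059 bases. The share in wide peaks was higher by 9.83 points (4.54 to 14.5), and by 6.22 points against all narrower peaks (1.18 to 10.6). The canonical start lay inside 197 of the 309, and for these the share was 82.7% (76.9 to 87.4%), which exceeded the same share at 2 to 5 kb by 15.1 points (8.83 to 20.1). The share did not rise steadily with width. In peaks up to 1 kb it was 76.9% (75.2 to 78.6%) over all single-gene peaks and 81.4% (79.5 to 83.2%) with the canonical start inside, both within the intervals of the wide peaks. For the remaining peaks the outermost start inside was used. In peaks above 10 kb with the canonical start inside, 31 of 34 reached further downstream, with a median of 10.3 kb downstream and 1.54 kb upstream.

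**Figure D3:**
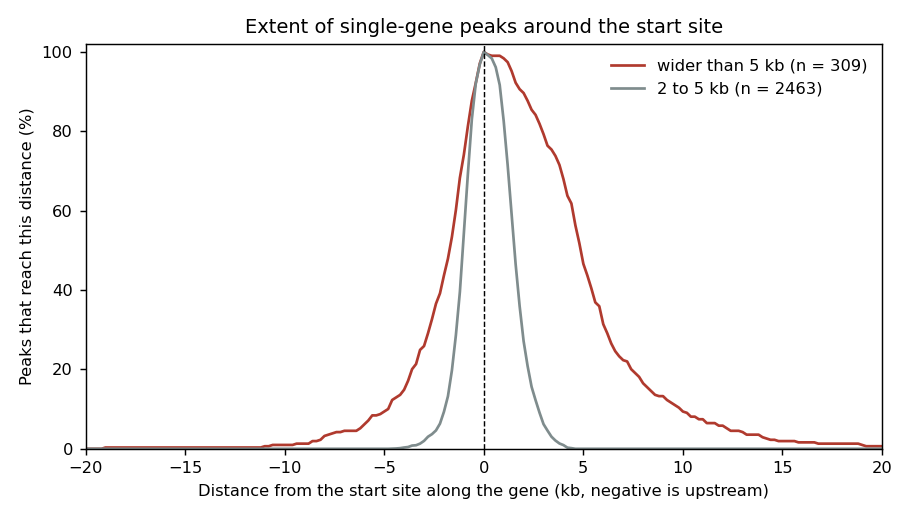
Percentage of single-gene peaks that reach each distance in kb from the start site, along the direction of the gene, for 309 wide peaks (red) and 2463 peaks of 2 to 5 kb (grey). Wide peaks reach a median of 4877 bases downstream and 1703 bases upstream.

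The downstream edge of these peaks fell past the first intron in 48.5% (43.0 to 54.1%) and inside the first intron in 35.9% (30.8 to 41.4%). At 2 to 5 kb the order was the opposite, with 29.2% past the first intron and 61.5% inside it. The edge was placed on the canonical transcript, whose start lay inside 197 of 309 wide peaks and 1990 of 2463 at 2 to 5 kb. A peak over another start can already begin past the first intron, and these peaks were not counted apart. The edge lay beyond the end of the gene in 10.03%, against 2.15%, and 22 wide peaks (7.12%, 4.75 to 10.54%) covered the whole gene, against 1.42%. Among the listed genes covered whole, sharing a peak or not, were ID3, ID1, JUNB, RGS2, FOXQ1, ATF4 and MAZ, all short genes of 5.06 kb or less. Since the reach of the edge follows the width, these shares describe the peaks and were not tested.

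Genes with a start in a wide peak numbered 403 of 20033 coding genes, or 2.01%, and 3.45% of the 11667 coding genes with a start in any peak. Of the 403, 8 were readthrough models. Their median length without those models was 24.3 kb, against 35.6 kb for genes with narrower peaks only and 16.4 kb for genes without a peak over a start. Genes under 5 kb made up 13.9% (10.9 to 17.7%), 7.80% and 23.01% of the 3 sets. The gene lists below were read against the 2 background shares, and a gene counts once for a start of any of its transcripts. The lists were chosen with earlier results of these data known, so their intervals are description and not a test. A gene without a peak was below the caller's cutoff or was removed after calling, so its absence does not show that the mark was lacking.

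The melanocyte lineage list was chosen to check the label of the line. Of its 22 genes, 13 had a peak over a start, beside 11667 of all 20033 coding genes. These shares are close, so having a peak over a start does not set this list apart. Wide peaks covered 5 (22.7%, 10.1 to 43.4%), beside 2.01% of all coding genes, namely SOX10, IRF4, OCA2, TFAP2A and PMEL. Of the 13 with any peak over a start the share was 38.5% (17.7 to 64.5%), beside 3.45%. With canonical starts only, wide peaks covered 4 of the 22 (18.2%, 7.31 to 38.5%). The canonical start of PMEL lay outside its peak. SOX10, the master factor of neural crest derivatives, had a peak of 18.04 kb that reached 10.4 kb upstream and 7.63 kb downstream and also held a start of POLR2F. IRF4, a factor of lymphocytes and melanocytes, had 10.12 kb, of which 9.03 kb lay downstream. OCA2, an ion transporter of the melanosome, had 10.05 kb. The peak of TFAP2A, a neural crest factor, spanned 6.79 kb, and that of PMEL, the melanosome matrix protein, 5.53 kb over starts of 2 coding genes. Narrower peaks lay over starts of MITF, the central melanocyte factor (3.39 kb), of DCT, an enzyme of melanin synthesis (3.89 kb), and of 6 further genes. A wide peak of 5.58 kb (chr3:69925151-69930730) also lay inside MITF, 5.86 kb upstream of the nearest coding start of that gene, and held no coding start itself. No peak lay over a start of PAX3, TYR, TYRP1, MLANA, KIT, TRPM1, SLC45A2, SLC24A5 or CITED1, a set that includes several genes of pigment synthesis. Narrower peaks elsewhere in these genes were not counted. The median of the widest peak over each gene with one was 3390 bases in this list and 1610 bases over all coding genes.

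Among 32 neural crest and Schwann cell genes, wide peaks covered 2 (6.25%, 1.73 to 20.1%), beside 2.01% of all coding genes. Of the 23 with any peak over a start the share was 8.70% (2.42 to 26.8%), beside 3.45%. Both intervals include the background, so this list was not set apart. The 2 were ERBB3, the neuregulin receptor subunit (5.66 kb), and ID3, an inhibitor of bHLH factors (8.35 kb), while 21 had narrower peaks only. None of the listed skeletal muscle (28), epithelial (24), blood (24), neuronal (24) or hepatocyte (20) genes had a wide peak. With lists of this size the upper limits were 12.1%, 13.8%, 13.8%, 13.8% and 16.1%, all above the 2.01% of all coding genes, so a lower share than the background was not detectable. Narrower peaks covered 6, 9, 5, 4 and 1 of them.

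Of the 40 genes in the cAMP-responsive list, wide peaks covered 10 (25%, 14.2 to 40.2%), beside 2.01% of all coding genes. Another 21 had narrower peaks only. Of the 31 with any peak over a start the share was 32.3% (18.6 to 49.9%), beside 3.45%. Whether the listed genes respond to cAMP in this line was not tested. DUSP4, a MAP kinase phosphatase, had 16.56 kb, of which 14.0 kb lay downstream of the start. SGK1, a serum and glucocorticoid regulated kinase, had 11.72 kb and CCND1, cyclin D1, had 11.34 kb. SIK1, a salt-inducible kinase that restrains CREB coactivators, had 9.96 kb, and JUNB, an AP1 subunit, 8.79 kb shared with another coding start. RGS2, a regulator of G protein signalling, had 7.42 kb. PPARGC1A, a coactivator of mitochondrial genes, had 6.60 kb. The cAMP phosphodiesterase gene PDE4B had 6.14 kb, the ERK phosphatase gene DUSP6 5.93 kb, and ID1 5.03 kb. The canonical starts of SGK1, SIK1 and PDE4B lay outside their wide peaks, which held other starts of these genes. Several classical cAMP targets in the list stayed under the limit, with 4.47 kb at NR4A2, 4.42 kb at NR4A3, 3.77 kb at FOS and 3.12 kb at CREM. PER1, FOSB and EGR3 had no peak over a start. Wide peaks without a coding start of these genes lay inside NFIL3, a bZIP repressor (8.35 kb), and at 3 places inside PDE4D, another cAMP phosphodiesterase gene (7.19, 6.38 and 5.41 kb), both of which had narrower peaks over a start. The median widest peak in the list was 3380 bases.

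**Figure D4:**
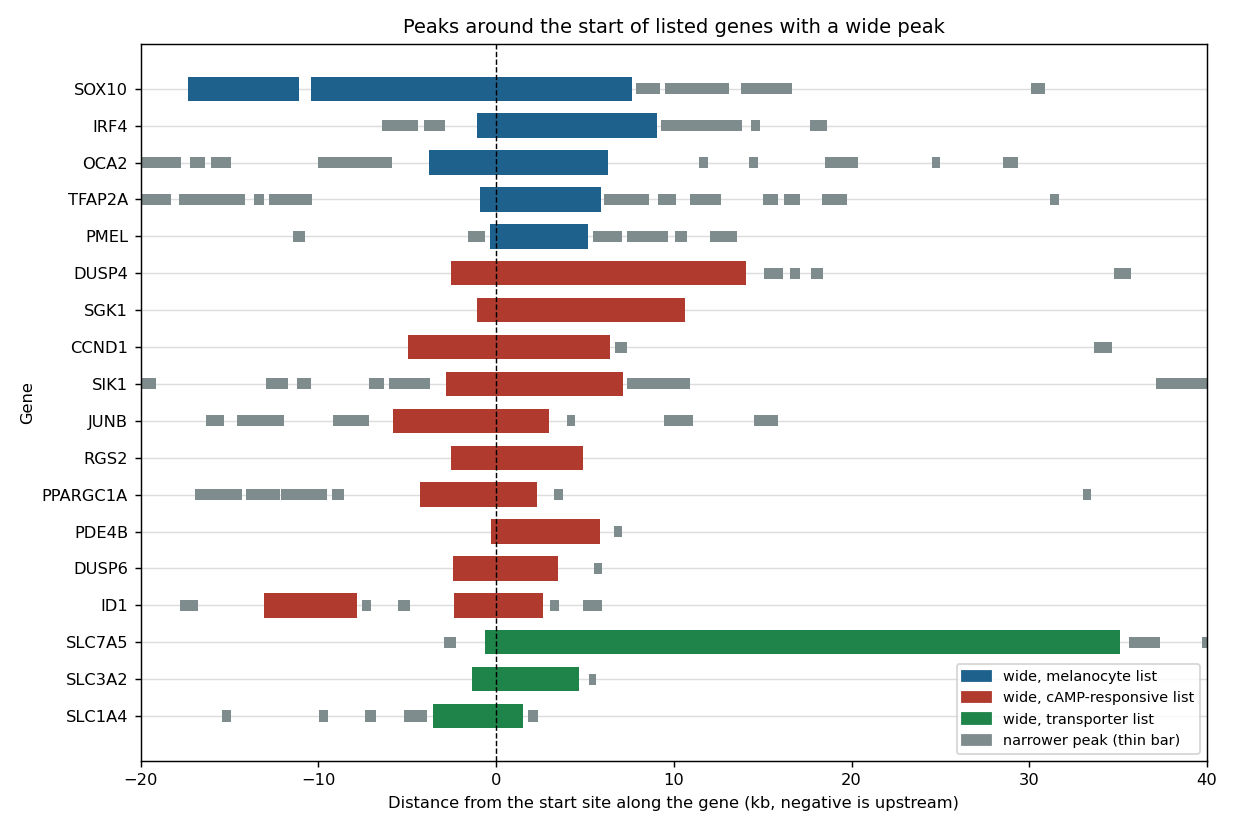
Peaks from -20 to 40 kb around the start of the 18 genes with a wide peak in the melanocyte, cAMP-responsive and transporter lists, oriented along each gene, with wide peaks as thick coloured bars and narrower peaks as thin grey bars. The SLC7A5 peak reaches 35.1 kb downstream, and SOX10 and ID1 each show 2 wide peaks in this window.

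Amino acid and other metabolic transporters had wide peaks in 3 of 12 genes (25%, 8.89 to 53.2%), beside 2.01% of all coding genes. Of the 10 with any peak over a start the share was 30% (10.8 to 60.3%), beside 3.45%. Besides SLC7A5 the wide peaks covered SLC3A2, which encodes the heavy chain that pairs with LAT1 (5.99 kb), and SLC1A4, a neutral amino acid transporter (5.09 kb). Both components of the LAT1 transporter thus lay under wide peaks. SLC7A11 and SLC1A5 had no peak over a start. Among 40 growth and survival genes, wide peaks covered 6 (15%, 7.06 to 29.1%), beside 2.01% of all coding genes. Of the 32 with any peak over a start the share was 18.75% (8.89 to 35.3%), beside 3.45%. The 6 included CCND1, ERBB3 and DUSP6, named above. The others were VEGFA, the vascular growth factor (7.55 kb), MYC, a growth-promoting bHLH factor (7.06 kb) and FGFR1, a fibroblast growth factor receptor (5.04 kb). Genes in several lists count in each.

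Transcription factor genes with a start in a wide peak numbered 37 of 748 (4.95%, 3.61 to 6.74%), beside 2.01% of all coding genes. Of the 400 with any peak over a start the share was 9.25% (6.79 to 12.49%), beside 3.45%. With canonical starts only, wide peaks covered 32 of the 748 (4.28%, 3.05 to 5.98%), beside 297 of 20033 coding genes. With a limit of 10 kb the share was 0.535% (0.208 to 1.37%), 4 genes, beside 0.349% of all coding genes, so a difference was not detectable there. The median widest peak was 2245 bases, beside 1610 bases over all coding genes. The numbered zinc finger genes with a wide peak were not among the 37 factor genes. Their lower share, 4 of 515 (0.777%), is given apart below. The factor share depends on this choice, as joining both sets would lower it, and the joined share was not computed. After SOX10 the widest were over DEAF1 (14.16 kb), MNT, a repressor that dimerises with MAX (10.85 kb), IRF4, and TGIF1, a homeobox repressor of SMAD signalling (9.52 kb). MAFK, a small MAF protein, had 9.04 kb. STAT5A and STAT5B, which are transcribed from opposite strands, shared a peak of 8.82 kb. ONECUT1, a homeobox factor of liver and pancreas, had 8.73 kb.

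By family, bHLH genes had the highest share among those with any peak, 8 of 44 (18.2%, 9.51 to 32.0%), with MYC, MNT, SREBF1, BHLHE40, ARNT2, ID1, ID2 and ID3. The ID genes encode inhibitors of bHLH factors. The bZIP family followed with 6 of 42 (14.3%, 6.72 to 27.8%), namely JUNB, MAFK, DBP, FOSL2, DDIT3 and ATF4. The intervals of these families overlapped that of all transcription factors. BHLHE40 had 8.15 kb, DBP 6.92 kb, and NR1D1, a nuclear receptor, 7.19 kb. RUNX2, a factor of bone, had 6.33 kb. The canonical starts of RUNX2, ID2 and STAT5B lay outside the wide peaks counted for them. SREBF1, the sterol regulator, had 7.91 kb, CSRNP1 7.87 kb, FOXQ1 7.17 kb and ZBTB7B 7.07 kb. BCL11A, a zinc finger repressor, had 6.82 kb. Homeobox and PAX genes had 5 of 63 with any peak (7.94%, 3.44 to 17.3%), including PAX9 (6.17 kb) and EN2 (6.57 kb).

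The numbered zinc finger (ZNF) genes gave 4 of 515 (0.777%, 0.302 to 1.98%), and 4 of the 400 with any peak (1%, 0.390 to 2.54%), beside 3.45%. Of 86 ribosomal protein genes, which are transcribed in all dividing cells, 77 had a peak over a start and none of these was wide (upper limit 4.75%, beside 3.45%). Their median widest peak was 1730 bases.

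**Figure D5:**
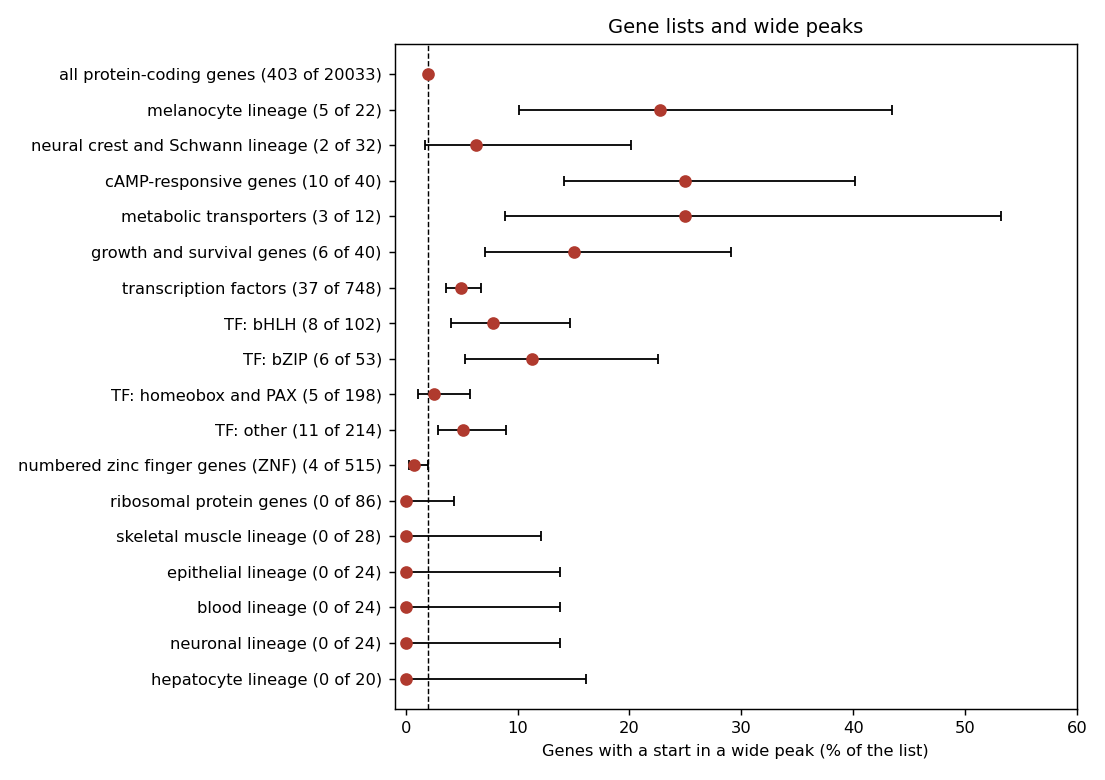
Percentage of each gene list with a start in a wide peak, with 95% Wilson intervals and the numbers of genes in brackets; the dashed line is the 2.01% of all coding genes. The cAMP-responsive and transporter lists stand at 25% and the melanocyte list at 22.7%, each with an interval that starts above the line. The lists were chosen with earlier results of these data known, so the intervals are description only.

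The 278 wide peaks without a coding start lay at a median of 18.4 kb from the nearest one, with quartiles of 6.44 and 61.8 kb. For 84 the distance was above 50 kb and for 47 above 100 kb. Their midpoints fell in later introns of coding genes in 90 cases (32.4%, 27.1 to 38.1%), in first introns in 40 (14.4%), in genes of other types in 62 (22.3%) and outside genes in 65 (23.4%). The 2 to 5 kb peaks without a coding start gave 30.7%, 13.6%, 19.3% and 27.1% for the same places, each inside the interval of the wide peaks.

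No annotated start lay within 3 kb of 147 wide peaks (22.8%, 19.7 to 26.1%), whose median width was 6260 bases. The widest was inside SH3BP5, an inhibitor of the tyrosine kinase BTK (19.12 kb, 5.22 kb from the nearest coding start). The next lay inside URB1, a ribosome biogenesis factor (18.57 kb), and TANC1, a scaffold protein of synapses (16.87 kb). MAD1L1, of the spindle checkpoint, held one of 14.41 kb, and KALRN one of 11.08 kb. Those near ZNF354A (16.79 kb) and TDRD15 (14.02 kb) lay in genes of other types, the latter 125.1 kb from the nearest coding start. WDR25 (15.41 kb), MAP7 (10.85 kb) and LRRFIP1 (10.72 kb) held the others of the 10 widest.

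Wide peaks stood closer to other peaks than narrower ones did. Another peak lay within 1 kb of 380 wide peaks (58.8%, 55.0 to 62.6%), against 35.6% of narrower peaks and 35.2% at 2 to 5 kb, a difference of 23.7 points from the latter (19.6 to 27.6). The median gap to the nearest peak was 600 bases, against 3690 bases at 2 to 5 kb. Another wide peak lay within 12.5 kb of 151 (23.4%, 20.3 to 26.8%), and these formed 62 groups with at most 5 members. The 5 wide peaks at WARS1 and WDR25 spanned 81.94 kb, and the 5 in SSBP3 spanned 59.65 kb. At SOX10 and POLR2F, 4 wide peaks with a summed width of 43.01 kb lay within 63.72 kb. URB1 was covered by the peaks of 24.13 and 18.57 kb with a gap of 240 bases, and DEAF1 by those of 14.16 and 7.22 kb with a gap of 190 bases. The number of wide peaks depends on the rule that joins neighbouring stretches, and joining all peaks within 1 kb raised it from 646 to 1355.

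The share of wide peaks among all peaks was highest on chromosome 21 (24 of 478, 5.02%, 3.40 to 7.36%) and chromosome 22 (35 of 790, 4.43%, 3.20 to 6.10%), and lowest on X (1.03%) and chromosome 4 (0.976%) apart from Y, where it was 0 of 18 peaks (upper limit 17.6%). On chromosome 21 the wide peaks took 28.5% of all bases under peaks, with URB1, BACE2 and SIK1 among the genes covered. The 24 include a peak of 14.52 kb (chr21:6113801-6128320) whose nearest coding start lay 4393 kb away. How reads were placed there was not tested. BACE2 had 3 wide peaks with a coding start inside, of 19.25, 9.99 and 9.80 kb. Copy number of these chromosomes in the line was not tested.

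Base composition was read around the start and around the midpoint. In single-gene peaks with the canonical start inside, the median observed over expected CpG in the 1 kb around the start was 0.837 (quartiles 0.708 and 0.911) for wide peaks and 0.840 at 2 to 5 kb. Around the midpoint of the peak it was 0.361 and 0.807. Median GC content was 68.1% at the start of wide peaks and 56% at their midpoint, against 68.2% and 66.2% at 2 to 5 kb. The midpoint lies further from the start in a wider peak, so windows of 1 kb were also read at equal distances, whether or not the peak reached them. At 2 kb downstream the median CpG ratio was 0.290 (quartiles 0.223 and 0.475) for wide peaks and 0.303 (0.212 and 0.433) at 2 to 5 kb, and at 3 kb it was 0.287 and 0.257. The CpG ratio was thus close at equal distances, while median GC content was 53.2% against 46.1% at 2 kb and 52.2% against 44.8% at 3 kb. Distal wide peaks, those with no start within 3 kb, had a median GC of 47.6%, against 47.1% at 2 to 5 kb.

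Motif letters were counted on both strands. In wide peaks with a coding start, TGACGTCA occurred 17.6 times per Mb (13.1 to 23.2), against 26.8 (23.5 to 30.5) at 2 to 5 kb, intervals that did not overlap. TGAGTCA, the AP1 site, occurred 177 times per Mb (162 to 193), against 122 (115 to 130). CATGTG, an E-box bound by MITF and its relatives, occurred 629 times per Mb (600 to 658), against 349 (336 to 362). The other letters counted differed too. TGANNTCA, which includes TGACGTCA, gave 467 against 340, ACAAAG 678 against 564 and CACGTG 243 against 209. GCCNNNGGC was less frequent in the wide peaks, 781 against 1107. GC content differed between the same sets, 54.7% against 59.4%, and its part in the counts was not tested. In distal wide peaks, where GC content was close to that of the band below, TGACGTCA occurred 7.59 times per Mb (3.28 to 15.0) against 14.0 (10.6 to 18.1), TGAGTCA 208 (181 to 237) against 197 (184 to 212), and CATGTG 859 (804 to 916) against 794 (767 to 822). ACAAAG, the core of SOX sites, gave 796 (743 to 852) against 854 (825 to 883), and CACGTG, the other E-box, 184 (159 to 212) against 168 (156 to 181). The TFAP2 letters GCCNNNGGC gave 416 (378 to 456) against 380 (361 to 400). For all 6 the intervals of distal wide peaks and distal peaks of 2 to 5 kb overlapped.

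RefSeq promoters of 300 bases, from 250 before to 50 after the start (GRCh38.p14), were matched to 312 of the 403 genes. Where a gene had several, the first in the table was used, and its start can differ from the canonical one. TGACGTCA was present in 7 of these (2.24%, 1.09 to 4.56%), against 3.47% of genes with narrower peaks only. TGANNTCA, which includes TGACGTCA, was present in 8.33% (5.75 to 11.9%) against 8.04%, and GCCNNNGGC in 37.2% (32.0 to 42.7%) against 33.0%. Each value for narrower peaks lay inside the interval of the wide peaks. Over all 15345 promoters matched the shares were 2.64%, 10.02% and 28.5%. When every RefSeq promoter lying wholly inside a peak was counted, GCCNNNGGC was present in 144 of 366 in wide peaks (39.3%, 34.5 to 44.4%) and in 35.5% in narrower peaks. Median GC content was 68.2% for the 312 promoters and 65.7% for those of genes with narrower peaks only. The RefSeq promoters of PPARGC1A lie at other starts than the canonical one and do not include the element shown above. Among listed genes matched, with a wide peak over the canonical start, TGANNTCA was found at KLF6 and TGIF1. The promoter of KLF6, a zinc finger factor with a peak of 6.52 kb, is shown with the motif in capitals 172 bases upstream of the start. That of TGIF1 lay outside its wide peak and is not shown.
KLF6, chr10:3785160-3785459, minus strand: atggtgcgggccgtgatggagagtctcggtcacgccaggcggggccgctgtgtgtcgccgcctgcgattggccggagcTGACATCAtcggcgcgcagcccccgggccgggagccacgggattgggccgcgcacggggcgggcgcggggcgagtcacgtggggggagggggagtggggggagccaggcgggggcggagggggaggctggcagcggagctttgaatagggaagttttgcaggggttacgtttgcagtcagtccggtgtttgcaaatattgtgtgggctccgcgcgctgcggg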

How the data were processed

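ChIP-seq for H3K27ac and input chromatin was made from SU-CCS-1 cells, 3 samples each, grouped by sample title. Reads were mapped by the authors with BWA-MEM (build hg38), samtools was used to drop duplicates, and the authors called broad peaks with MACS2 against input and discarded peaks in regions on the ENCODE denylist. The submitters' processing notes give BWA 0.7.10-r789 and MACS2 2.2.6. The deposited list holds the chromosome, start, end and name of merged peaks, with all coordinates on a grid of 10 bases. How the 3 replicates were joined is not given in the sources used here. Broad calling joins neighbouring stretches, so width also depends on signal height, depth and the joining rule.

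Start sites, exons and gene types came from GENCODE version 44 on hg38 (Python 3.11.15, pandas 2.3.3, pysam 0.24.0). Coordinates are counted from 1. Interval steps were tested on simulated data. Comparisons were made with all narrower peaks and with peaks of 2 to 5 kb. No test across samples was possible. The members and gene lists were chosen with earlier results of these data known. The transcription factor list held 748 symbols in 9 families. Genes were named if they stood in a list, had 1 of the 20 widest peaks, 1 of the 10 widest peaks without a start within 3 kb or 1 of the 10 peaks with the most coding starts, were among the 20 factor genes with the widest peaks, or belonged to the 3 peaks on either side of the limit. Promoters were to be shown for at most 8 listed genes with a wide peak over the canonical start, by the letters in the promoter. The windows at equal distances from the start and the count of promoters lying inside peaks were chosen after seeing the data. A result among the widest peaks is not reported here.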

Additional observations from a re-analysis of the deposited data

How the results depend on the processing

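Of 21 alternatives, 12 kept the value inside the 95% interval of the share, or within 1.5 times the count. Joining peaks within 1 kb first gave 1355 wide peaks. With a limit of 10 kb, 68.4% of peaks held a coding start, 84.7% lay within 3 kb of any start, 70 coding genes had a start in such a peak, and 0.535% of transcription factor genes did (4 genes), with an interval that includes the 0.349% of all coding genes. With Ensembl canonical transcripts only, 39.2% of wide peaks held a coding start. A window of 1 kb gave 70.9% near any start, and protein-coding transcripts only gave 63.0% within 3 kb. The downstream share was 82.7% where the canonical start lay inside, an alternative chosen after seeing the data. These alternatives change the peaks or starts counted by construction. No paired analysis was possible because replicates were not kept apart in the list, and for the same reason no replicate could be left out. Depth, signal height and variation between replicates are not given by the list, so the width of a single peak carries no error.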
